A study of Mus musculus with 8 samples.

Results

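The IFIT family (interferon-induced proteins with tetratricopeptide repeats) was followed in stromal cells sorted from the mouse large intestine. The 5 genes taken were Ifit1, Ifit1bl1, Ifit2, Ifit3 and Ifit3b, chosen by symbol, out of 24346 gene symbols in the deposited tables. All 5 were listed in every library. A further relative, Ifit1bl2, was listed as well and is described beside them as a gene outside the chosen set.

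RNA was sequenced from 8 mice aged 12 weeks, named here control 1 to 4 and cKO 1 to 4, with values always in that order. The 4 control mice had the genotype Il10ra flox/flox, with loxP-flanked copies of the gene for the interleukin-10 receptor subunit that binds the cytokine. The 4 cKO mice carried the same floxed alleles together with Pdgfra cre, a Cre recombinase under a gene of intestinal fibroblasts. Live cells positive for podoplanin and negative for CD45, CD31 and EpCAM were sorted from the colon. The series' title names the question as whether this receptor in fibroblasts restrains type I interferon signalling. The controls carried no Cre, so loss of the receptor and presence of Cre cannot be told apart, and podoplanin-positive cells that never expressed Pdgfra would keep the floxed gene.

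IFIT genes are among the most strongly induced targets of type I interferon. Interferon bound to its receptor leads, through the kinases JAK1 and TYK2, to a transcription factor complex with STAT2 and IRF9, which binds interferon-stimulated response elements in the promoters of its targets. IFIT1 holds the 5′ end of RNAs whose cap lacks the ribose methylation of host mRNA and blocks their translation, while IFIT2 and IFIT3 join other IFIT proteins in complexes.

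Values are FPKM (fragments scaled to transcript length in kilobases and to library size), so that levels of different genes can be set side by side per length. Depth was estimated at 18000000 fragments per library, with relative depths of 0.849 to 1.07, and 15815 to 16323 genes were above 0. Log2 values of different libraries correlated at 0.965 to 0.989. The targeted gene Il10ra had an FPKM of 0.842, 0.665, 0.614 and 0.403 in the controls and of 0.439, 0.273, 0.633 and 0.636 in the cKO mice. These groups overlapped, and as no source used here says which exons are flanked, a value over the whole gene is no check of the genotype. Pdpn was at 84.8 to 94.7 in all libraries. Pdgfra, whose gene drives the Cre, was at 126 in cKO 1 and at 157 to 167 in the other 7 libraries. Epithelial markers, which the EpCAM gate should remove, were present in all libraries: the summed FPKM of 11 markers was 55.1 to 120 in control, 934 in cKO 1, 489 in cKO 2, 129 in cKO 3 and 46.3 in cKO 4. The design text counts 4 mice per genotype, so p-values measure the spread between mice. In sorted bulk RNA, fewer cells of a type and less RNA per cell cannot be told apart.

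The family lies in a cluster on chromosome 19 (34550550 to 34662981 in RefSeq's annotation of GRCm38.p6, the assembly behind mm10). The end of this range is set by RefSeq's record of Ifit1bl1, which reaches beyond Ifit1. In GENCODE's annotation of the same assembly Ifit2 (34550694 to 34576419), Ifit3 (34583531 to 34588731), Ifit3b (34607970 to 34613401) and Ifit1 (34640871 to 34650009) are on the plus strand. Ifit1bl1 (34592891 to 34601956) and Ifit1bl2 (34617049 to 34640743) are on the minus strand. All 6 are protein-coding, and no exon of one overlapped an exon of another.

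The promoters are shown because the response element is the known route by which interferon reaches these genes. The motif, GAAA followed by any 2 bases and GAAA again, was searched on both strands in the 300 bases around each RefSeq promoter start. These bases ran from 250 before to 50 after it. The starts of RefSeq's gene records can differ from these promoter starts, as given below. It was found in the promoters of 4 of the 5 members, all but Ifit2. Counted by gene in the same way, 3.99% of 27025 genes held it, and 3.44% of 32851 promoters in the table. For these 4, 200 bases before the start are printed 5′ to 3′ on the strand of the gene, with motif matches in capitals. The sequences are from RefSeq, GRCm38.p6.
Ifit1, chr19:34640689-34640888, plus strand: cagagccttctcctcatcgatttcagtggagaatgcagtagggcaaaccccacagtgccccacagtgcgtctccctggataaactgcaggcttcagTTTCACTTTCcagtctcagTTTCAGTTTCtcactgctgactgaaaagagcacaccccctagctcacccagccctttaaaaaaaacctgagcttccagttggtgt
Ifit3, chr19:34583329-34583528, plus strand: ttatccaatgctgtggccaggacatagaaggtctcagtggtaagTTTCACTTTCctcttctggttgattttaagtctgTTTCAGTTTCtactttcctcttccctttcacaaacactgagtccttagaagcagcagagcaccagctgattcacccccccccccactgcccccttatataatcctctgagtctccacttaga
Ifit3b, chr19:34607757-34607956, plus strand: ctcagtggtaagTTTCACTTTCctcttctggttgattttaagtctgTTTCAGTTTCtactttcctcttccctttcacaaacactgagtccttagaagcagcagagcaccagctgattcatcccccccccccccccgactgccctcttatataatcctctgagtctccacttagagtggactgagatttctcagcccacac
Ifit1bl1, chr19:34601969-34602168, minus strand: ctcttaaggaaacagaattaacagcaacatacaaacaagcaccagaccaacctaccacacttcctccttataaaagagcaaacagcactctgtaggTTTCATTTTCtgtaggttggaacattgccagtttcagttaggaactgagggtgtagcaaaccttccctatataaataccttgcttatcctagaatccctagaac

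Ifit1 held matches that began 104 and 85 bases before its start. Ifit3 held them at 156 and 122 bases and Ifit3b at 188 and 154 bases before theirs. RefSeq's gene records begin further upstream, at 34583119 for Ifit3 and 34607530 for Ifit3b. By those records the matches of this pair lie inside the genes. The Ifit3 and Ifit3b windows were identical at 258 of 260 aligned bases, so that the pair carries the same match letters in the same spacing from starts placed differently. Ifit1bl1 has a pair of promoter starts in the table, each with a separate match of the same letters. The match at 34602063 to 34602072 lay 104 bases before its start, and that at 34599441 to 34599450 lay 23 bases before its own. RefSeq's gene record of Ifit1bl1 begins at neither start but at 34662981, so that by this record both matches lie inside the gene. Ifit1 and Ifit1bl2 are transcribed away from each other, with promoter starts 146 bases apart and windows that share 245 bases. The matches before that Ifit1bl2 start, at 70 and 51 bases, are those before Ifit1, read on the other strand. They lie at the same places, 34640785 to 34640794 and 34640804 to 34640813. RefSeq's gene record of Ifit1bl2 begins at 34640827 on the minus strand, so that by this record both matches lie inside the gene. The record of Ifit1 begins at its promoter start, 34640889. In neither window of Ifit2 were these letters present, which says nothing of bases outside the windows.

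**Figure D1:**
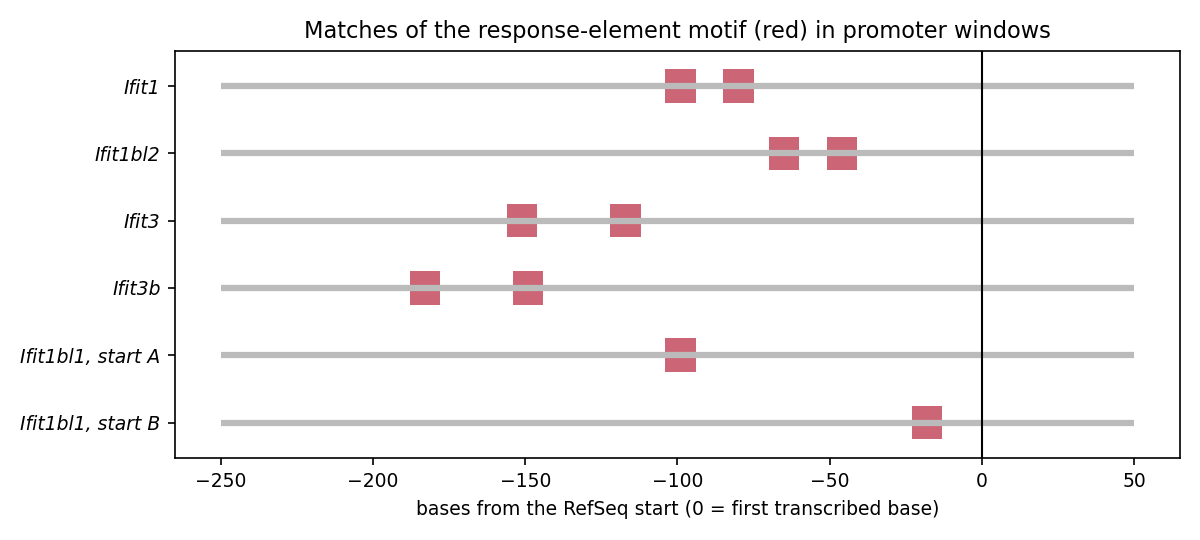
Positions of matches to the response-element motif (red) in each promoter window (grey), for 4 members and Ifit1bl2. Positions are in bases from the RefSeq promoter start at 0, and RefSeq's gene records can begin elsewhere. Starts A and B are the 2 promoter starts of Ifit1bl1. Ifit1, Ifit1bl2, Ifit3 and Ifit3b each hold 2 matches within 188 bases of the start, and each start of Ifit1bl1 has 1.

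The levels fell into steps. In the control libraries Ifit3 had the highest mean FPKM at 10.5, Ifit2 followed at 9.48 and Ifit1 at 8.73, and the ranges of these neighbours overlapped. Ifit3b came next at 2.11, with all of its values below all of those of Ifit1. Ifit3 and Ifit3b share long stretches, as given below, so their separate levels and fragments depend on how the authors' tools split them. Ifit1bl1 stood at 0.655, below Ifit3b without overlap, and Ifit1bl2 at 0.382 within the range of Ifit1bl1. In the cKO libraries the order was Ifit3, Ifit1, Ifit2, Ifit3b, Ifit1bl1 and Ifit1bl2, with gaps that no ranges bridged at the same places, above and below Ifit3b. By the estimated depth, the lowest and highest values stood for about 229 and 706 fragments of Ifit1, 491 and 880 of Ifit2, 212 and 888 of Ifit3, 54.8 and 218 of Ifit3b, and 7.30 and 64.7 of Ifit1bl1. Counting error alone would be 6.61% of the lowest Ifit1 value but 37.0% of the lowest Ifit1bl1 value.

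No IFIT member was called changed between control and cKO cells, although the 4 tested ones had higher means in cKO. In limma over the 11506 genes whose mean FPKM reached 1, 0 of 4 members had a Benjamini-Hochberg adjusted p under 0.05, and 0 of 4 had an unadjusted p under 0.05. Over all genes tested, 0.00869% passed the adjusted threshold (1 gene, Mir5098, lower in cKO), and at an unadjusted p under 0.05 2.37% were higher and 3.03% were lower (457 and 172 genes in place of 273 and 349 when libraries were rescaled to a fixed sum). The median difference of the 4 members was 0.42 on the log2(FPKM + 1) scale, against -0.01 over all genes tested, of which 47.4% had a higher cKO mean. Ifit1bl1, with a mean FPKM under 1, was read from the same fit without the filter (18065 genes, of which 0.00554% were called and at an unadjusted p under 0.05 2.63% were higher and 2.57% were lower). None of the 5 members separated the groups, where 1.36% of the genes tested lay wholly higher and 1.9% wholly lower in cKO.

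**Figure D2:**
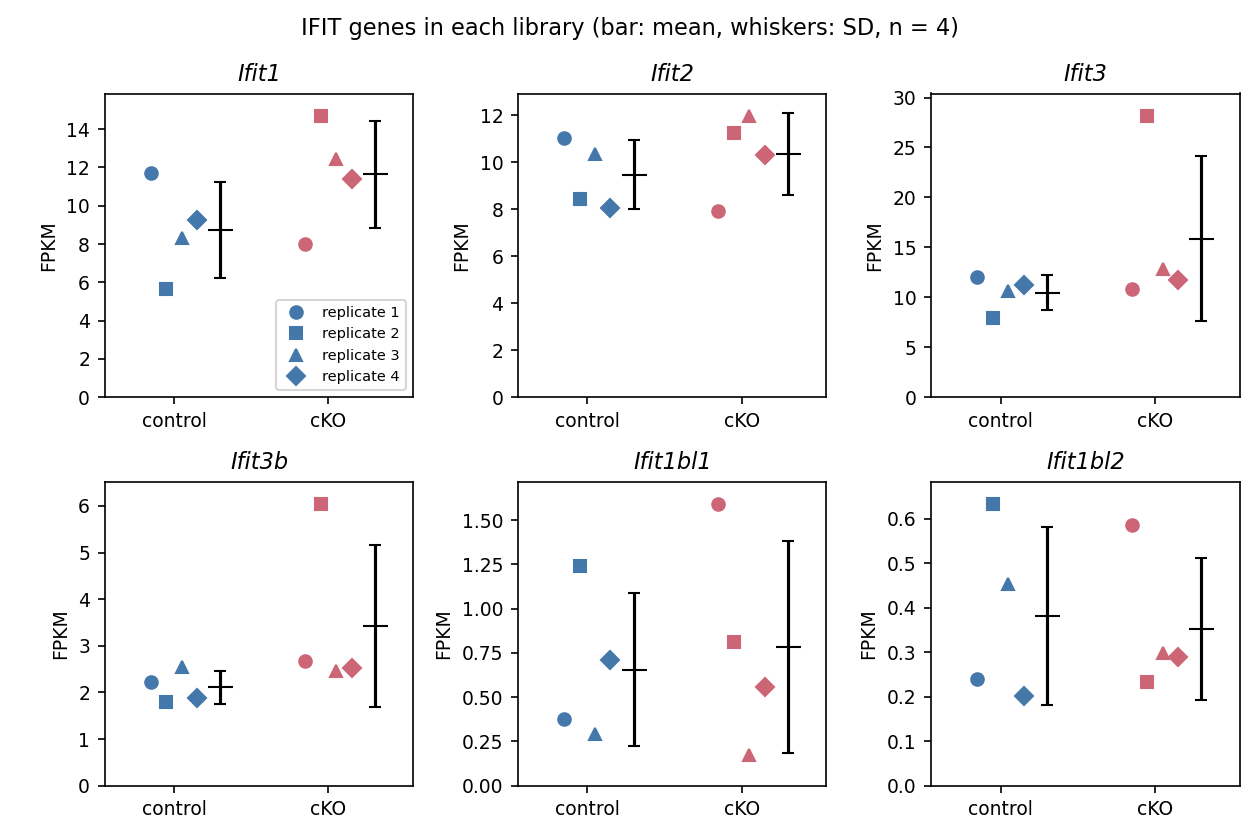
FPKM of the 5 members and Ifit1bl2 in each library, by group, with the symbol marking the replicate number; horizontal bars are means and whiskers SD (n = 4). The y axes differ between panels. In Ifit3 and Ifit3b, cKO 2 stands at 28.1 and 6.03, above all other libraries, and the groups overlap in every panel.

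Ifit1, which encodes the cap-reading member, had an FPKM of 11.7, 5.65, 8.29 and 9.27 in the controls. In the cKO mice it was 8.01, 14.7, 12.5 and 11.4. Of the cKO libraries, 2 exceeded the highest control library, and cKO 1 lay below 3 control libraries. The means were 8.73 ± 2.51 and 11.6 ± 2.78 (SD, n = 4 each), a ratio of 1.33, and limma gave a log2 difference of 0.39 (SE 0.21, 95% interval -0.08 to 0.85, adjusted p = 0.897). Without control 2, the lowest library, the difference was 0.22.

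Ifit2, a partner in IFIT complexes, varied least. It was at 11.1, 8.43, 10.4 and 8.05 in the controls and at 7.95, 11.2, 12.0 and 10.3 in the cKO mice. The lowest library of all was cKO 1 and the highest cKO 3. With means of 9.48 ± 1.47 and 10.4 ± 1.75 (SD, n = 4 each), the log2 difference in limma was 0.11 (SE 0.13, 95% interval -0.18 to 0.41, adjusted p = 0.957).

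Ifit3 and Ifit3b are near-identical copies. Their coding sequences, 1209 bases each, were the same at 1198 positions (99.1%), and 869 of the 1696 stretches of 50 bases in the Ifit3 transcript occurred exactly in that of Ifit3b. Fragments from such stretches cannot be given to one copy, and how the authors' tools split them is not given in the sources used here, so the single values are uncertain and the sum is the firmer reading. No other pair of members shared more than 0.744% of such stretches, while Ifit1 shared 7.06% of its own with Ifit1bl2.

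Ifit3 had an FPKM of 12.0, 7.97, 10.7 and 11.2 in the controls and of 10.8, 28.1, 12.8 and 11.7 in the cKO mice. Ifit3b had 2.22, 1.80, 2.55 and 1.87 in control and 2.68, 6.03, 2.46 and 2.52 in cKO. Both copies stood out in the same library, cKO 2, where Ifit3 was 2.39 times and Ifit3b 2.36 times the mean of the other 3 cKO libraries. The ratio of Ifit3 to Ifit3b was 4.17 to 5.97 in control and 4.03 to 5.20 in cKO libraries, and at 4.67 in cKO 2 it lay within that range. A fragment of one copy can be given to the other, so these likenesses are not separate observations of each gene.

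The sum of the pair was 14.2, 9.77, 13.2 and 13.1 in the controls. In the cKO mice it was 13.5, 34.2, 15.3 and 14.2. Apart from cKO 2, the cKO libraries lay between 13.5 and 15.3, around the highest control. The means were 12.6 ± 1.93 and 19.3 ± 9.96 (SD, n = 4 each), a ratio of 1.53, and limma with the summed row gave a log2 difference of 0.49 (SE 0.26, 95% interval -0.09 to 1.06, adjusted p = 0.897). Without cKO 2 the cKO mean was 14.3 ± 0.904 (SD, n = 3), a ratio of 1.14 to control, and the difference fell to 0.19 (adjusted p = 0.847). Taken singly, Ifit3 differed by 0.47 (SE 0.26, adjusted p = 0.897) and Ifit3b by 0.44 (SE 0.22, adjusted p = 0.897), and without cKO 2 by 0.17 and 0.20.

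**Figure D3:**
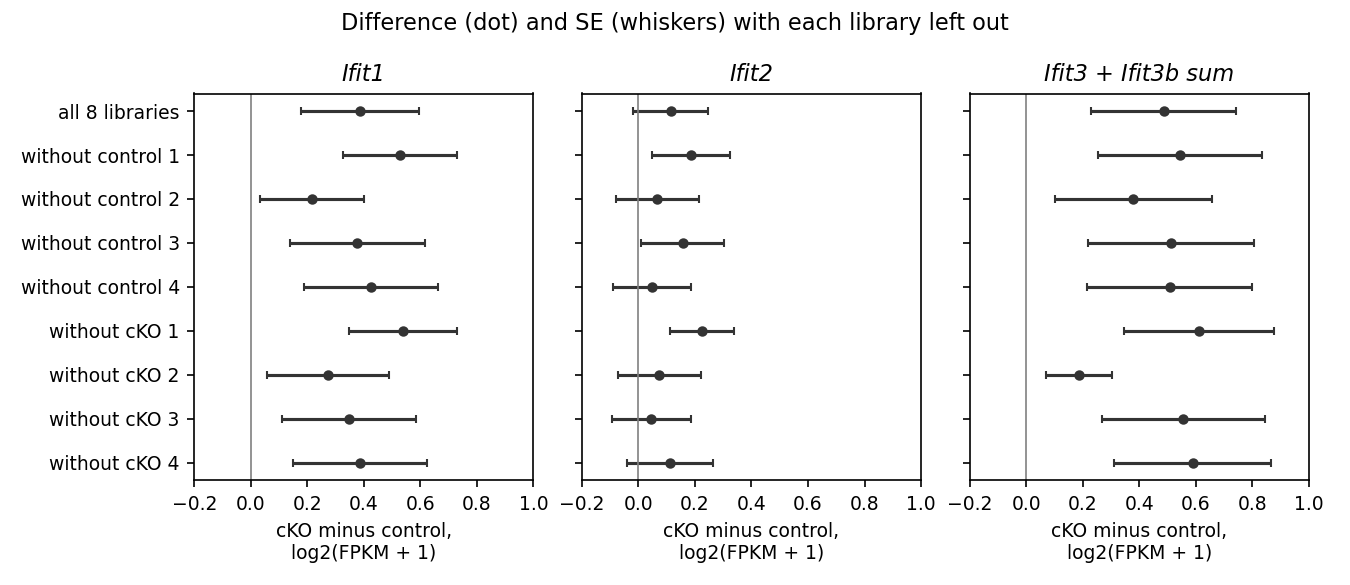
Difference between cKO and control on the log2(FPKM + 1) scale (dots) with its SE (whiskers) for Ifit1, Ifit2 and the sum of Ifit3 and Ifit3b, over all 8 libraries and with each library left out. The sum moves from 0.49 to 0.19 without cKO 2, and all values stay above 0.

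Ifit1bl1, an Ifit1-like gene, was low. It was at 0.378, 1.24, 0.290 and 0.711 in the controls and at 1.59, 0.813, 0.172 and 0.560 in the cKO mice. Its highest libraries were cKO 1 and control 2, where Ifit1 was among its lowest. The log2 difference between groups was 0.08 (SE 0.26, 95% interval -0.50 to 0.67, adjusted p = 0.973 in limma without the filter). Leaving out cKO 1, whose epithelial marker sum was the highest, turned it to -0.12. Ifit1bl2 ran from 0.201 to 0.633 in control and from 0.234 to 0.587 in cKO libraries (log2 difference -0.03, adjusted p = 0.980), with cKO 1 again the highest of its group.

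The members were also compared across all 8 libraries on the log2(FPKM + 1) scale, without a term for the group. A shift between groups that a pair of genes shares therefore enters their correlation and its p-value. Of 21 relations (between the 5 members, Ifit1bl2 and the mean of the epithelial markers), 1 passed after adjustment. Ifit1 and Ifit3 ranked the libraries nearly alike (Pearson r = 0.81, exact permutation p = 9.9e-05, adjusted p = 0.0021; Spearman rho = 0.98, exact permutation p = 4.0e-04, adjusted p = 0.0083). Without the libraries farthest from the median of Ifit3, control 2 and cKO 2, r was 0.95. Ifit1 and Ifit2 gave r = 0.75 (exact permutation p = 0.0417, adjusted p = 0.126; rho = 0.81, adjusted p = 0.229; r = 0.90 without control 4 and cKO 1). Ifit3 and Ifit3b gave r = 0.94 but rho = 0.36 (exact permutation p = 0.0364 and 0.389, adjusted p = 0.126 and 0.691), and r was -0.11 without control 2 and cKO 2, so that this relation rests on those libraries. These copies can share fragments, so their values are not separate measurements.

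Ifit1bl2 and Ifit1, whose promoter windows overlap, gave a negative relation that did not pass after adjustment (r = -0.83, exact permutation p = 0.0160, adjusted p = 0.126). Their Spearman rho was -0.69 (adjusted p = 0.291), and r was -0.51 without control 2 and cKO 1. By the estimated depth, Ifit1bl2 stood for only about 12.2 to 36.6 fragments per library. Counting error alone would be 28.6% of its lowest value and 16.5% of its highest. Ifit1 also shared 7.06% of its transcript stretches with Ifit1bl2, as given above. With so few fragments of Ifit1bl2, whether these genes vary in opposite ways cannot be decided. Ifit1bl1 and Ifit2 were also negatively related (r = -0.78, exact permutation p = 0.0350, adjusted p = 0.126; rho = -0.69, adjusted p = 0.291; r = -0.77 without control 4 and cKO 1). Ifit1bl1 and the epithelial markers gave r = 0.64 (exact permutation p = 0.106, adjusted p = 0.264; rho = 0.38, adjusted p = 0.691), which became -0.01 without cKO 1 and cKO 2. Ifit3 and the epithelial markers gave r = 0.34 (exact permutation p = 0.399, adjusted p = 0.558; rho = 0.40, adjusted p = 0.691), with r = 0.81 without cKO 1 and 0.11 without cKO 1 and cKO 2. Ifit3b gave r = 0.44 with them (exact permutation p = 0.326, adjusted p = 0.489; rho = 0.38, adjusted p = 0.691), with r = 0.73 without cKO 1 and -0.51 without both. Ifit1 gave r = 0.06 (exact permutation p = 0.931, adjusted p = 0.931; rho = 0.26, adjusted p = 0.751), with r = 0.50 without cKO 1 and 0.11 without both.

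Among the genes tested, those most like the summed FPKM of the 5 members over the 8 libraries were Parp14 (r = 0.99), Slc22a21 (0.95), Pfkfb2 (0.95), Zc3h10 (0.94) and Aagab (0.94). These are the highest correlations among the 11506 genes tested, with the tested members left out, and are given as a description. Parp14, an interferon-induced ADP-ribosyltransferase, had an FPKM of 3.55, 2.71, 3.20 and 3.02 in the controls and of 3.18, 4.35, 3.63 and 3.43 in the cKO mice. The family sum was lowest in control 2 (25.1) and highest in cKO 2 (60.9), as Parp14 was, and the r of Parp14 without cKO 2 was also 0.99.

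**Figure D4:**
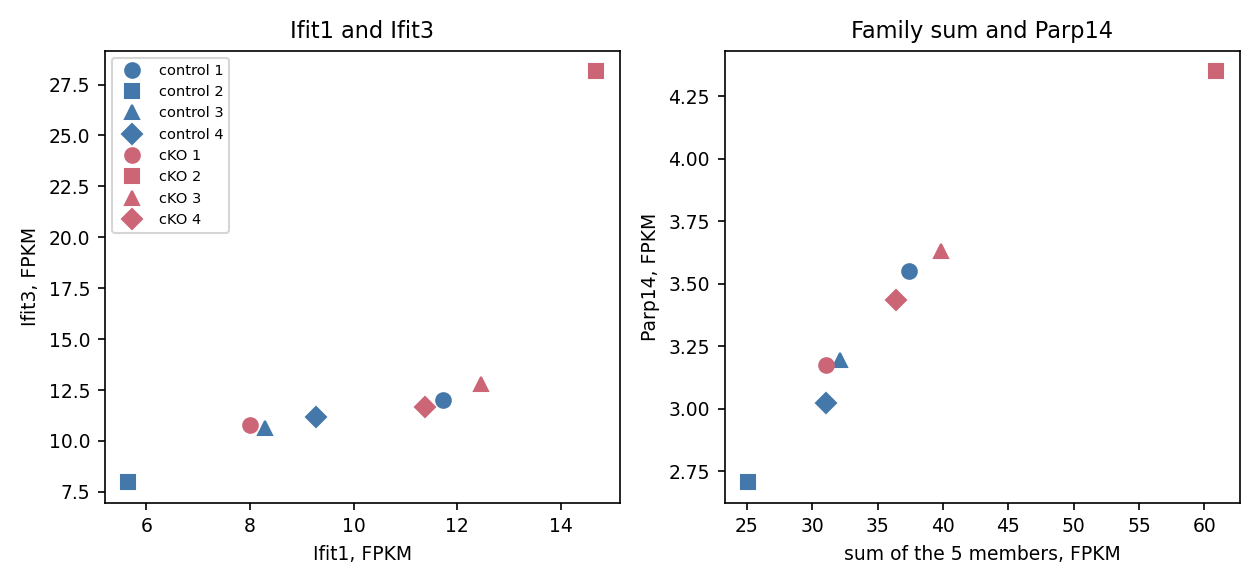
Ifit3 against Ifit1 (left) and Parp14 against the summed FPKM of the 5 members (right), one point per library, with colour for the group and symbol for the replicate. In both panels control 2 is lowest and cKO 2 highest, and control and cKO libraries are interleaved between them.

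Other genes of the pathway were read from lists of known genes. Interferon ligands were near or at 0: of 11 listed, Ifnb1 reached at most 0.220 and Ifng at most 0.148, and the other 9 were listed at 0 in all libraries. Of 15 genes of receptors and signalling, 9 had a higher cKO mean, 0 were called and 0 had an unadjusted p under 0.05 in limma (median difference 0.03). Stat2, part of the complex that drives IFIT genes, averaged 12.4 ± 1.39 and 14.2 ± 0.887 (SD, n = 4 each, adjusted p = 0.897 in limma). The kinase gene Jak1 was at 111 ± 6.43 and 104 ± 4.01 (adjusted p = 0.910). Of 12 tested sensors of foreign RNA or DNA, 9 had a higher cKO mean and 0 were called, with 0 at an unadjusted p under 0.05 (median 0.03). Dhx58, a relative of RIG-I, was at 2.46 ± 0.336 and 3.14 ± 0.531, and Zbp1, a sensor of Z-form nucleic acids, at 6.70 ± 1.00 and 8.86 ± 2.34 with its highest value, 12.1, in cKO 2. Tmem173, which encodes STING, was at 10.5 ± 1.38 and 9.83 ± 0.534.

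Of 51 genes in the type I interferon response list, none of them an IFIT gene, 43 were tested. Of these, 37 had a higher cKO mean, 0 were called, and at an unadjusted p under 0.05 in limma 12 were higher and 1, Ifi27, lower. Over all genes tested the shares at that threshold were 2.37% higher and 3.03% lower. The list's median difference was 0.14. Usp18, the protease that removes ISG15 and dampens the receptor, had 7.20, 7.21, 6.10 and 7.53 in the controls and 9.14, 11.9, 10.8 and 8.82 in the cKO mice. Its groups did not overlap, and its log2 difference was 0.48 (SE 0.10, adjusted p = 0.761). Rsad2, which encodes the antiviral enzyme viperin, was also without overlap, at 0.942 to 1.29 in control and 1.62 to 3.30 in cKO libraries (0.59, SE 0.16, adjusted p = 0.897). Of the 43, 3 genes lay wholly higher in cKO, where 1.36% of all genes tested did: Usp18, Rsad2 and Oas2 (1.66 to 1.94 and 2.06 to 3.66), the last named after its values were seen. Oas1g, too low to be tested and also named after its values were seen, was likewise without overlap (0.0902 to 0.235 and 0.267 to 0.652). Ifi47, an interferon-inducible GTPase gene, differed by 0.74 (SE 0.20, adjusted p = 0.897). Leaving out control 2 brought the count of 12 to 4, leaving out control 3 to 6, leaving out cKO 2 to 5 and leaving out cKO 4 to 7. With the epithelial marker mean as a covariate it was 10. Markers of other cell types also had higher cKO means: 11 of 11 tested for epithelium, 9 of 13 for leukocytes, 2 of 2 for endothelium (of 8 listed) and 5 of 5 for smooth muscle. At an unadjusted p under 0.05 in limma these were 0, 2, 1 (Pecam1) and 2 genes, with Actg2 of smooth muscle without overlap, and 0 were called. The summed FPKM of 8 endothelial markers was 2.77 to 4.39 in control and 3.50 to 10.3 in cKO libraries, and that of 5 smooth muscle markers was at most 40.7 in control and 57.4, 28.3, 44.2 and 51.5 in the cKO mice. Pericyte markers had higher cKO means in 2 of 2. Of 7 fibroblast markers, 1 had a higher and 6 had a lower cKO mean. In these 2 lists 0 genes had an unadjusted p under 0.05 in limma. The summed FPKM of the fibroblast markers was 18819 to 19794 in control and 17170 to 21004 in cKO libraries. The part of these cell types in the result was not tested.

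The library in which Ifit3 stood out was also the one that held the highest value of more genes of this list than any other library. Of the 43 genes, 16 (37.2%) had their highest value in cKO 2, against 12.8% of all genes tested, and 13 (30.2%) had it in cKO 4, against 13.5%. In control 2, where Ifit1 and Ifit3 were lowest, 13 of the 43 (30.2%) had their lowest value, against 11.8% of all genes. On the log2(FPKM + 1) scale, the excess of cKO 2 over the mean of the other cKO libraries was 1.19 for Ifit3 and 0.99 for Ifit3b. These copies, which can share fragments, held ranks 30 and 49 of 11506. The excess was 0.45 for Ifit1 and 0.16 for Ifit2, and 0.14 at the median of the list. Among the 43 tested genes its highest values were 0.58 for Rsad2 and 0.44 for Oas2, and among the 8 too low to be tested it was 0.88 for Ifi44. The epithelial marker sum was 489 in cKO 2, against 55.1 to 120 in control, and 934 in cKO 1. With the epithelial marker mean as a covariate, the difference of the Ifit3 and Ifit3b sum was 0.42 (adjusted p = 0.874) and that of Ifit1 0.46 (adjusted p = 0.793). Whether other cells carried the excess of cKO 2 was not tested. Summed leukocyte markers were at 157 in cKO 2, 324 in cKO 1 and 112 to 176 in the other 6 libraries.

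Brakes of the response (9 tested) had 4 higher means and 5 lower, with 0 called and Usp18, which the response list also holds, alone at an unadjusted p under 0.05 (median -0.05). Socs1 was at 36.2 ± 2.01 and 41.6 ± 8.29 and the phosphatase gene Ptpn11 at 16.2 ± 1.35 and 14.9 ± 1.46. Genes for enzymes that build and methylate the mRNA cap had 3 higher and 3 lower means of 6 tested. Of these, 0 were called and 0 had an unadjusted p under 0.05 in limma (median 0.01). Among them, the ribose methyltransferase genes Cmtr1 and Cmtr2 were at 14.3 ± 1.03 and 14.5 ± 0.885, and at 2.13 ± 0.282 and 2.13 ± 0.219. The cap methyltransferase gene Rnmt averaged 3.54 ± 0.406 and 3.70 ± 0.206, Rngtt, for the capping enzyme, 5.89 ± 0.296 and 5.71 ± 0.669, and Pcif1 17.7 ± 1.68 and 17.0 ± 2.13. Of 12 tested subunits of eIF3, the translation factor that IFIT proteins bind, 3 had higher means, 0 were called and Eif3h alone was lower at an unadjusted p under 0.05 (median -0.05). Eif3h, without overlap between groups, was at 101 ± 4.97 and 91.7 ± 4.53 (log2 difference -0.14, adjusted p = 0.897). Eif3k was at 81.5 ± 4.96 and 74.6 ± 5.77 and Eif3l at 60.4 ± 2.44 and 57.2 ± 0.972.

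**Figure D5:**
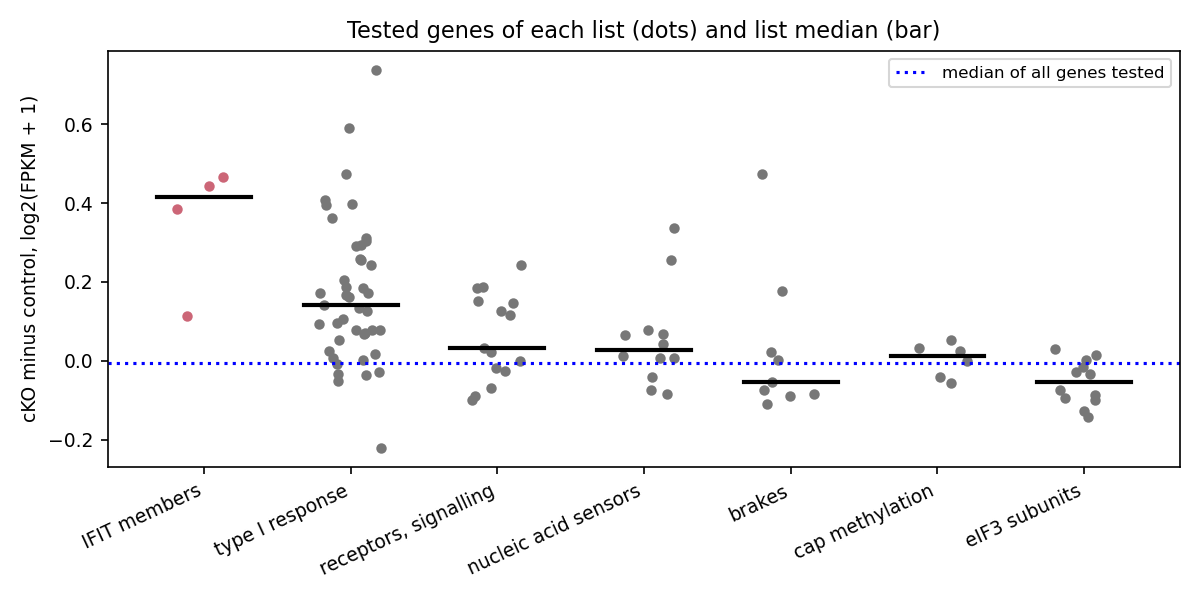
Difference between cKO and control on the log2(FPKM + 1) scale for every tested gene (dots) of the IFIT family and of 6 pathway lists, with list medians (bars) and the median of all genes tested (dotted line). The 4 tested IFIT members lie between 0.11 and 0.47, within the range of the type I response list, and the other lists have medians of -0.05 to 0.03.

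The nearest 3 protein-coding genes on each side of the cluster were also compared. To the left, Fas was at 23.7 ± 1.76 and 21.9 ± 1.51, Ch25h at 5.09 ± 1.27 and 5.38 ± 1.39 and Lipa at 31.9 ± 2.73 and 32.4 ± 1.85 (SD, n = 4 each). In cKO 2 these 3 genes stood at 23.3, 3.35 and 31.6, inside or below the range of the other libraries. To the right, Slc16a12, Pank1 and Kif20b had a mean FPKM of 0.337, 0.419 and 0.322 over all libraries, and none of the 6 was called in limma (adjusted p = 0.914 to 0.988).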

How the data were processed

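The authors deposited 1 table of FPKM values per library. The submitters' processing notes name the build mm10 and the tools Cufflinks 2.2.1, Cuffdiff, SAMtools 0.1.18, Bowtie2 2.3.5.1 and TopHat2 2.1.1. Their roles, settings and annotation were not given in the sources used here. Libraries were made from SMART-Seq full-length cDNA, per the labels' protocols. FPKM divides by length and by all mapped fragments, and copies such as Ifit3 and Ifit3b can share fragments.

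Fragment counts were not analysed here. Relative depth was read from whole-number steps between libraries of genes with a mean FPKM under 0.3, and absolute depth from 38 single-transcript genes of at least 4000 bases (quartiles 17600000 and 18100000). Fragments given for a gene are estimates from the length of a GENCODE transcript.

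Values were transformed to log2(FPKM + 1). Genes whose mean FPKM reached 1 were fitted with limma 3.58.1 in R 4.3.3 (trended eBayes, 2 groups, Benjamini-Hochberg over all genes), and a second fit replaced Ifit3 and Ifit3b by their sum. Fold changes on this scale understate those of low genes. The script was tested on simulated data. Correlations used exact permutation in scipy 1.17.1, two-sided, with Benjamini-Hochberg adjustment over 21 relations. Of the lists' genes, those named have the 3 smallest unadjusted p of each list, except 1 gene that is not reported here. Members and lists were chosen with earlier results of these data known. Alternatives were 2 pseudocounts, 2 filters, 3 scalings, 3 variance or weight settings, a replicate block, an epithelial covariate and each library left out.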

Additional observations from a re-analysis of the deposited data

Results flagged for a closer look

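Values of 46 genes and of the Ifit3 and Ifit3b sum were checked in each group of 4 libraries (94 groups). In 11 groups 1 library lay far from the other 3 by Dixon's criterion. Some of the genes were picked from these same values, Ifit3 and Ifit3b can share fragments, and their sum repeats them. The 11 are therefore not independent, and their number was not set against a chance rate. In cKO 2, Ifit3 was at 28.1 (the others at 10.8 to 12.8), Ifit3b at 6.03 (2.46 to 2.68), their sum at 34.2 (13.5 to 15.3) and Pfkfb2 at 3.43 (2.50 to 2.55). In cKO 1, Pdgfra was at 126 (163 to 167 in the others) and Actg2 at 4.82 (2.76 to 3.08). Stat2 was at 12.9 in cKO 3, below 14.6 to 14.8. In the controls, Pcif1 was at 20.2 in control 3 (16.5 to 17.1) and Mir5098, the 1 called gene, at 144 in control 1 (45.8 to 54.0). Traces of Ifnb1 in cKO 2 (0.0929) and of Ifng in control 3 (0.106) stood against libraries of the same group listed at 0. Against such values any trace meets the criterion. Higher values lay in the other group, with Ifnb1 at 0.220 in control 2 and 0.187 in control 4, and Ifng at 0.148 in cKO 3.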

How the results depend on the processing

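Over 20 alternatives, 0 IFIT members and 0 genes of the type I interferon response list were called in each. Ifit1, Ifit2, Ifit3, Ifit3b and the Ifit3 and Ifit3b sum stayed higher in cKO under every alternative run (for Ifit3b 19, since a minimum mean FPKM of 5 removed it). With single libraries left out, the log2 differences ranged from 0.22 to 0.54 for Ifit1, 0.05 to 0.22 for Ifit2, 0.17 to 0.60 for Ifit3, 0.20 to 0.54 for Ifit3b and 0.19 to 0.61 for the sum. Ifit1bl1 turned to -0.043 with array weights and to -0.17 with the epithelial covariate, and ranged from -0.12 to 0.26 with libraries left out; Ifit1bl2 ranged from -0.11 to 0.056. The cause was not tested. The count of list genes higher at an unadjusted p under 0.05 was 12, 7 with a minimum mean FPKM of 5 (fewer genes tested) and 4 to 16 with libraries left out. With the replicate block the sum differed by 0.49 (adjusted p = 0.898) and Ifit1 by 0.39. Same-numbered libraries deviated together at correlations of only 0.02 to 0.09, so the numbers were not taken to pair the mice. A motif shorter or longer by 1 base was also held by 4 members, and by 9.76% and 0.944% of all genes (8.56% and 0.819% of all promoters). Depth limits Ifit1bl1, at about 7.30 fragments in its lowest library.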
